A study of Mus musculus with 14 samples.

Results

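The 43 interferon-stimulated effector genes described here are the rows of the count table whose gene name is on a list of effectors outside the IFIT, OAS, GBP, IRG and p200 families. They were followed in whole mouse heart over 4 groups and by mouse. All 43 were among the 54532 genes of the table and all 43 were among the 16034 genes with enough counts to be tested. The hearts came from 14 wild-type male C57BL/6J mice that were 8 weeks old at the time of treatment. Groups IRR_1d (n = 3) and IRR_6w (n = 4) had received 30 Gy of γ-rays from a cobalt source to the chest and were examined 1 day and 6 weeks later. Groups Control_1d (n = 3) and Control_6w (n = 4) were not irradiated and were taken at the same times. Each library was made from 1 heart, with no pooling, so each value below belongs to 1 mouse. Because the tissue was bulk heart, fewer cells of a type and less RNA per cell cannot be told apart in any value. The 6-week mice were also older than the 1-day mice, so age and time after irradiation cannot be told apart in a comparison over time.

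Type I and type III interferons signal through the kinases JAK1 and TYK2 to transcription factors that bind the interferon-stimulated response element (ISRE) in the promoters of their target genes. The gamma-activated site (GAS) is the corresponding element of the response to interferon gamma. The induced genes encode the proteins that restrict viral entry, replication and release, modify other proteins with ISG15 or ADP-ribose, sense double-stranded RNA, or damp the response itself. Interferon production can also start without a virus, for example when damaged DNA reaches the cytosol.

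Promoter stretches are shown first, since the ISRE is the sequence through which most of these genes are known to be induced. RefSeq windows of 300 bases (build GRCm38.p6, 250 bases before to 50 bases after the start) were at hand for 34 of the 43 genes. GAAA followed by any 2 bases and a second GAAA, searched on both strands as a simple form of the ISRE, was found in a window of 12 of these 34 genes (35.3%), against 3.99% of the 27025 genes with a window. TTCNNNGAA, a simple form of the GAS that reads the same on both strands (N is any base), was found in 6 of 34 (17.6%) against 9.55%. In the lines below the match is in capitals, each sequence reads 5′ to 3′ along the strand of its gene, and a match that starts with TTTC lies on the opposite strand. Isg15 is shown because it holds 3 overlapping matches, 78 to 57 bases before the start (chr4:156200850-156200921, minus strand). Rsad2 (chr12:26456538-26456597, minus strand, match 120 to 111 bases before the start) and Eif2ak2 (chr17:78882537-78882562, minus strand, match on bases 18 to 27 after the start) are shown because they were called at 6 weeks. Slfn8 (chr11:83020824-83020883), Slfn9 (chr11:82991841-82991900), Trim30a (chr7:104465195-104465254) and Lgals9 (chr11:78984945-78985004), all on the minus strand, are shown because they have a match in the 55 bases just before a start. Matches after a start in Ifitm3, Trim21, Shisa5, Lgals9 and a second window of Trim30a are not shown. Also not shown are 2 overlapping matches of Bst2, 130 to 115 bases before the start, and 1 match of Slfn5, 155 to 146 bases before it.
Isg15: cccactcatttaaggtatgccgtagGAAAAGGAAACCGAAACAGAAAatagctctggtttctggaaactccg
Rsad2: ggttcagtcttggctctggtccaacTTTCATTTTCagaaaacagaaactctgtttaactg
Eif2ak2: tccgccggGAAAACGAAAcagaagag
Slfn8: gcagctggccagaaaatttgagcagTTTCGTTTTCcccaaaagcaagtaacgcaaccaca
Slfn9: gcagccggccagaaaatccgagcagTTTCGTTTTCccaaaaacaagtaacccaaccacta
Trim30a: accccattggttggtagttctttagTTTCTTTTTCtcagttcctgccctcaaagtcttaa
Lgals9: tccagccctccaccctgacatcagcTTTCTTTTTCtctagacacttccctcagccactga
The Slfn8 and Slfn9 stretches share 32 of the 35 bases (91.4%) that end with the match, and the match itself is identical. The windows of Lgals3bp and Rnf213, the other two called genes, held neither motif. The 12 genes with the ISRE letters had a median log2 fold change of 1.37 at 6 weeks, the 22 genes whose windows lack them 0.99, and the 9 genes without a window 1.21. A match is a description of the letters and not a binding site, and no test was made of this split.

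Some hearts stood apart from the rest of the series by their markers and are named here before the results. Libraries held 13336746 to 16837265 counts. Ucp1, the uncoupling protein of brown fat, was counted in IRR_1d replicate 3 (222 CPM, counts per 1000000 of the TMM-scaled library total), Control_6w replicate 3 (484) and IRR_6w replicate 1 (687) and had 0 counts in the other 11 libraries. Control_6w replicate 3 also held the thymocyte gene Rag1 at 1128 CPM, against 20.1 in the next library. IRR_6w replicate 1 held the airway gene Scgb1a1 at 345 CPM, and 4 atrial genes summed to 2822 CPM there and to 1168 CPM in IRR_1d replicate 3. The 5 testis germ cell genes summed to 28.4, 39.7 and 25.8 CPM in Control_6w replicates 1, 2 and 3 and to at most 0.361 CPM in the other 11 libraries. Of these genes, Oaz3 had 25.2, 36.7 and 23.1 CPM there and a log2 fold change of -9.17 at 6 weeks (SE 1.49, edgeR adjusted p = 0.0250). The part of these tissues in the 6-week values was not tested. Cardiomyocyte genes were abundant in all 14 libraries, with 8 markers summing to 4905 CPM in Control_6w replicate 3, 8447 CPM in IRR_6w replicate 1 and 13530 to 44320 CPM in the other 12. In Control_1d replicate 1 and IRR_6w replicates 3 and 4, 30.7, 21.6 and 8.62% of the genes at a median of 2 to 5 CPM elsewhere had 0 counts, so a 0 in those hearts is not read as absence.

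At 6 weeks after irradiation, 42 of the 43 genes were higher in IRR_6w than in Control_6w, with a median log2 fold change of 1.15 (2.22-fold), while the median over all genes tested was -0.09. In total 4 genes rose by the calling rule used throughout, a fold change above 2 or below 0.5 with an adjusted p under 0.05 in edgeR's quasi-likelihood test over all genes. They were Lgals3bp, Rsad2, Rnf213 and Eif2ak2, and none of the 43 fell. For the same comparison DESeq2 called 18 (and 1.19% of the genes of its fit), limma-voom 2, Lgals3bp and Rsad2 (0.112%), and edgeR on the 6-week groups alone 1, Lgals3bp (0.0890%). Here and below, a share of all genes beside another fit is over the genes of that fit. DESeq2 had 28748 genes, which include genes too low for the edgeR filter, so its shares are not over the 16034 genes and look smaller for that reason. Beyond the 4, the DESeq2 calls were Ifi27l2a, Ifi44, Isg15, Mx1, Parp12, Parp14, Parp9, Phf11d, Rtp4, Tor3a, Trim30a, Uba7, Ube2l6 and Usp18, and below "called" refers to edgeR unless DESeq2 is named. These 4 are 9.30% of the genes described, where 0.256% of all genes tested were called. With the same fold limits and an unadjusted p under 0.05, 25 of 43 passed (58.1%), all higher, against 5.43% of all genes. In 22 of 43 (51.2%) every IRR_6w heart was above every Control_6w heart, against 4.08% of all genes. The genes were picked with earlier results of these libraries known, so these shares describe them and are not independent evidence of a direction.

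**Figure D1:**
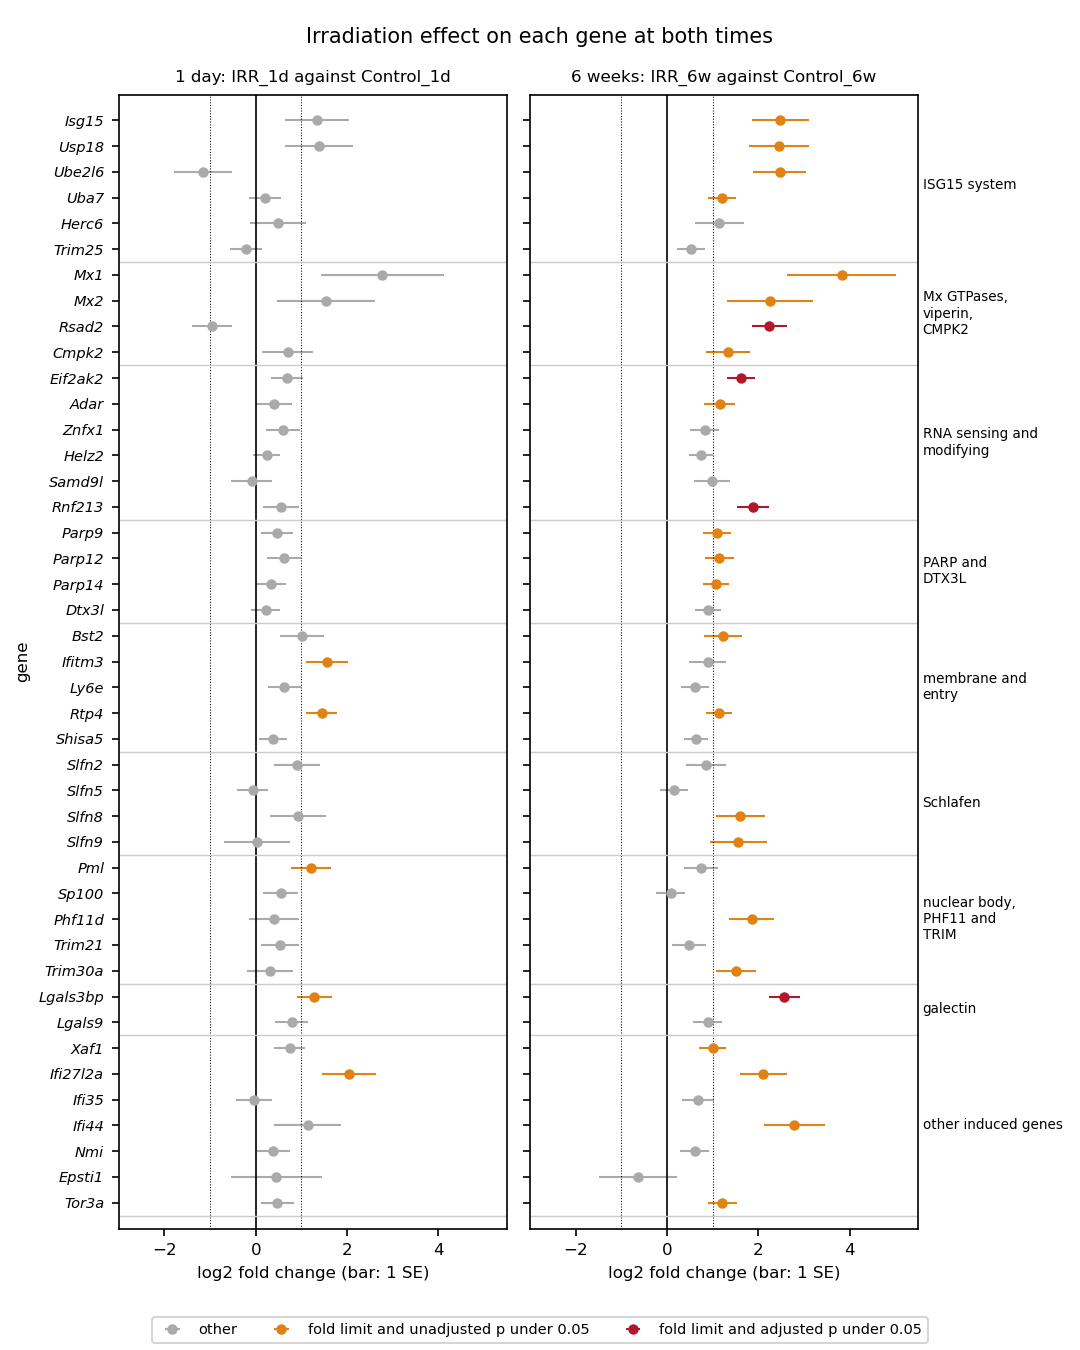
Log2 fold change (x axis, bars are 1 SE) of each of the 43 genes (y axis, in blocks by role) for IRR_1d against Control_1d on the left and IRR_6w against Control_6w on the right, with dotted lines at the fold limits of 2 and 0.5. At 6 weeks 42 genes lie right of 0 and the 4 called genes are in dark red, whereas at 1 day 37 lie right of 0 and none is called.

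Lgals3bp, a secreted scavenger-receptor glycoprotein that binds galectins, had the smallest p of the 43 genes (ENSMUSG00000033880, chromosome 11, 118392751–118402092, positions in mm10 here and below). The 4 Control_6w hearts held 33.1, 37.5, 42.7 and 37.8 CPM of Lgals3bp and the 4 IRR_6w hearts 156, 201, 255 and 287 CPM, listed here and below in the order of the replicate numbers. These CPM values serve to compare 1 gene between hearts. The groups did not overlap, and the lowest irradiated heart held 156 CPM against 42.7 CPM in the highest control. The log2 fold change was 2.57 (SE 0.345, adjusted p = 0.0188). At 1 day, Lgals3bp stood at 47.5, 47.2 and 68 CPM in Control_1d and 88.4, 77.1 and 231 CPM in IRR_1d, again without overlap, and the log2 fold change of 1.29 had an unadjusted p of 0.00447 and missed the adjusted limit. It was 0.61 without IRR_1d replicate 3 (unadjusted p = 0.0611). The call at 6 weeks held in 10 of the 14 fits that each leave out 1 library and ended when any 1 of Control_6w replicates 1 and 2 and IRR_6w replicates 3 and 4 was left out (adjusted p = 0.0567 to 0.10).

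Lgals9, galectin-9, is the other galectin-related gene of the list. Lgals9 was at 58.7, 51.6, 85.5 and 50.8 CPM in Control_6w and at 67.1, 115, 122 and 152 CPM in IRR_6w, so Control_6w replicate 3 exceeded IRR_6w replicate 1 and the groups overlapped. Its log2 fold change was 0.89 (SE 0.319, adjusted p = 0.379).

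The antiviral GTPases and nucleotide enzymes had the highest median of any role, a log2 fold change of 2.26 over 4 genes, of which 1 was called and all 4 passed the fold limit at an unadjusted p. Rsad2 encodes viperin, which makes a chain-terminating nucleotide from CTP (ENSMUSG00000020641, chromosome 12, 26442746–26456452). In Control_6w Rsad2 measured 71.7, 44.9, 29.6 and 48 CPM, and in IRR_6w 229, 142, 228 and 322 CPM. The lowest irradiated heart, replicate 2, at 142 CPM, stood above the highest control, replicate 1, at 71.7 CPM. The log2 fold change was 2.25 (SE 0.388, adjusted p = 0.0335). This call held in 7 of 14 fits without 1 library and was lost without Control_1d replicate 3, any 1 of the 4 Control_6w hearts, or IRR_6w replicate 3 or 4 (adjusted p = 0.0535 to 0.149). At 1 day Rsad2 stood at 134, 60.1 and 91.1 CPM in Control_1d and 28.6, 41.2 and 76.7 CPM in IRR_1d, and the groups overlapped. The log2 fold change at 1 day was -0.96 with an unadjusted p of 0.0424, the only value below that limit among the 6 genes that were lower at 1 day, and it was not called.

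Cmpk2, a mitochondrial nucleotide kinase of particular interest to the study, lies 12751 bases from Rsad2 on chromosome 12 and is transcribed in the opposite direction. Hearts of Control_6w had 44.5, 31.6, 15.7 and 28.5 CPM of Cmpk2, and those of IRR_6w 18.2, 64.4, 114 and 106 CPM. IRR_6w replicate 1 lay within the control range and the other three irradiated hearts above it. Its log2 fold change was 1.33 (SE 0.489, adjusted p = 0.392), which was not a call. Without the 3 hearts with Ucp1 counts, a set left out after the data were seen, it was called (adjusted p = 0.0402, with 0.0402 to 0.776 over all alternatives). The dynamin-like GTPases Mx1 and Mx2 were the lowest of all 43 genes per length, at 0.458 ± 0.609 and 0.531 ± 0.323 FPKM in Control_6w (SD, n = 4). Counts of Mx1 came to 0, 1.07, 5.13 and 0.741 CPM in Control_6w and 8.22, 16.4, 30.6 and 44.6 CPM in IRR_6w, with no overlap. Its log2 fold change of 3.82 (SE 1.19, adjusted p = 0.258) was the largest of the 43 genes and also had the largest SE. It was 5.35 without Control_6w replicate 3 and 3.37 to 4.12 in the other fits without 1 library. Background knowledge adds that most inbred mouse strains carry a defective Mx1, and the annotation lists Mx2 as a polymorphic pseudogene.

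The ISG15 system attaches the ubiquitin-like protein ISG15 to other proteins. Uba7 activates ISG15, Ube2l6 conjugates it, Herc6 is the main ligase in mice and Usp18 removes it. None of the 6 genes was called at 6 weeks, but all 6 were higher with a median log2 fold change of 1.83, and Isg15, Usp18, Ube2l6 and Uba7 passed the fold limit at an unadjusted p. The 4 Control_6w hearts held 52.6, 30.2, 62.9 and 32.2 CPM of Ube2l6 and the 4 IRR_6w hearts 608, 140.2, 111 and 124 CPM. Replicate 1, at 608 CPM, stood far above replicate 2 at 140.2 CPM, and all 4 were above the controls. The log2 fold change was 2.47 (SE 0.571, adjusted p = 0.102), and it was 1.49 without that heart, the lowest value of the 14 fits that leave out 1 library. At 1 day Ube2l6 stood at 199, 84.3 and 242 CPM in Control_1d and 53.2, 59 and 124 CPM in IRR_1d, a log2 fold change of -1.15 (adjusted p = 1.00). Uba7 was at 21.9, 15, 24 and 19.5 CPM in Control_6w and at 27.1, 41.7, 64.4 and 52.8 CPM in IRR_6w, and the log2 fold change was 1.21 (SE 0.303, adjusted p = 0.124). In Control_6w Isg15 measured 1.98, 6.81, 5.24 and 3.10 CPM, and in IRR_6w 21.7, 44.3, 12.9 and 17 CPM, and all irradiated hearts were above the controls. Its log2 fold change was 2.48 (SE 0.627, adjusted p = 0.125). Usp18 reached 11.7, 42.45, 79.7 and 71.6 CPM in IRR_6w against 7.84, 5.51, 19.1 and 4.85 CPM in Control_6w, so that IRR_6w replicate 1 lay below Control_6w replicate 3. Herc6 and Trim25 had log2 fold changes of 1.15 and 0.53.

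The double-stranded RNA sensor Eif2ak2 and the genes listed with it gave 2 of the 4 calls. Rnf213, a giant ubiquitin ligase known as the susceptibility gene of moyamoya disease, rose at 6 weeks (ENSMUSG00000070327, chromosome 11, 119393100–119487418). Hearts of Control_6w had 115, 78.5, 84.1 and 105 CPM of Rnf213, and those of IRR_6w 151, 287, 436 and 539 CPM. Values ranged widely within IRR_6w but stayed above the controls, and the log2 fold change was 1.89 (SE 0.348, adjusted p = 0.0434). Of its exonic bases 8.74% also belong to an antisense transcript, and the strandedness of the counts was not stated. Eif2ak2 encodes PKR, the kinase that halts translation on binding double-stranded RNA (ENSMUSG00000024079, chromosome 17, 78852564–78882573). Counts of Eif2ak2 came to 16.6, 18, 22.8 and 20.2 CPM in Control_6w and 38.2, 59.7, 68.7 and 70.9 CPM in IRR_6w. The controls lay close together, the irradiated hearts did not overlap with them, and the log2 fold change was 1.61 (SE 0.307, adjusted p = 0.0468). Both calls held in only 3 of the 14 fits without 1 library, those without Control_1d replicate 1, IRR_1d replicate 3 or IRR_6w replicate 1. In the other 11, without Control_1d replicate 2 or 3, IRR_1d replicate 1 or 2, any 1 Control_6w heart, or IRR_6w replicate 2, 3 or 4, the adjusted p was 0.0564 to 0.181 for Rnf213 and 0.0546 to 0.198 for Eif2ak2, while the log2 fold changes stayed at 1.61 to 2.14 and 1.52 to 1.78. Adar, the adenosine deaminase that edits double-stranded RNA, had 1.16, and the helicases Znfx1 and Helz2 and the translation inhibitor Samd9l had 0.83, 0.75 and 0.98, none called. Every IRR_6w heart was above every control for 5 of these 6 genes, all but Samd9l.

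Genes of ADP-ribosylation lay close together, and 3 of the 4 passed the fold limit at an unadjusted p. Parp9 and Dtx3l form a ligase complex and Parp12 and Parp14 are mono-ADP-ribosyltransferases. Their log2 fold changes at 6 weeks were 1.09, 0.89, 1.15 and 1.07, with no call among them. The 4 Control_6w hearts held 63.4, 63, 49 and 71 CPM of Parp14 and the 4 IRR_6w hearts 69.3, 127, 129 and 192 CPM. Parp9 was at 32.9, 20.1, 30.2 and 25.1 CPM in Control_6w and at 36.9, 55, 61.1 and 77.8 CPM in IRR_6w. IRR_6w replicate 1 was the lowest irradiated heart for both and lay within the Parp14 controls. The log2 fold changes were 1.07 (SE 0.283, adjusted p = 0.148) and 1.09 (SE 0.302, adjusted p = 0.170). The neighbours Parp9 and Dtx3l share 9.40 and 8.0% of their exonic bases on opposite strands, so their counts are not fully separate.

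Among the membrane and entry factors, the tetherin gene Bst2 and the receptor chaperone Rtp4 had the largest log2 fold changes, and they alone among the 5 genes passed the fold limit at an unadjusted p. In Control_6w Rtp4 measured 11.9, 11.9, 18.2 and 15.4 CPM, and in IRR_6w 25.2, 38.5, 30.9 and 32.1 CPM, without overlap, and the log2 fold change was 1.14 (SE 0.294, adjusted p = 0.135). Hearts of Control_6w had 17.6, 46.1, 37.2 and 34.2 CPM of Bst2, and those of IRR_6w 50.7, 121, 52.2 and 92.8 CPM, and the log2 fold change was 1.23 (SE 0.424, adjusted p = 0.351). The fusion inhibitor Ifitm3 (0.89), the surface protein Ly6e (0.62) and the p53-responsive Shisa5 (0.63) had smaller log2 fold changes and were not called. These include the most abundant genes of the list, with Ifitm3 at 118 ± 27.7 and Ly6e at 95 ± 35.1 FPKM in Control_6w (SD, n = 4), a difference within their SDs, followed by Bst2 at 37.4 ± 13.2 FPKM. In IRR_6w the order began with Ifitm3 (219 ± 74.4 FPKM), Ly6e (146 ± 35), Ifi27l2a (124 ± 84.3) and Ube2l6 (123 ± 121). The means of Ifitm3 and Ly6e differed by less than the SD of Ifitm3 but more than that of Ly6e, and the place of Ube2l6 rests on the high value of replicate 1. Of the exonic bases of Rtp4, 13.9% are shared with another transcript on the same strand.

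The Schlafen genes, a family of growth regulators clustered on chromosome 11, were split, with 2 of the 4 past the fold limit at an unadjusted p and none called. Counts of Slfn8 came to 9.21, 5.05, 21.6 and 6.13 CPM in Control_6w and 19.8, 24.9, 39.7 and 43.8 CPM in IRR_6w, and its log2 fold change was 1.61 (SE 0.535, adjusted p = 0.316). The 4 Control_6w hearts held 5.79, 4.82, 16.9 and 4.51 CPM of Slfn9 and the 4 IRR_6w hearts 9.78, 21.3, 35.3 and 28.6 CPM, with a log2 fold change of 1.57 (SE 0.633, adjusted p = 0.471). In both, Control_6w replicate 3 was the highest control and stood above IRR_6w replicate 1, and the genes share 6.99 and 5.90% of their 75-base stretches with other genes, in part with each other. Slfn2 had 0.85 and Slfn5 0.15, the latter with 139, 255, 241 and 243 CPM in IRR_6w and 257, 225, 86.7 and 219.7 CPM in Control_6w.

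The nuclear body and TRIM genes also differed among themselves. Phf11d and Trim30a, a damper of Toll-like receptor signalling, had the largest log2 fold changes and were the 2 of 5 past the fold limit at an unadjusted p, and none of the 5 was called. Phf11d was at 18.5, 16, 6.78 and 18.4 CPM in Control_6w and at 21.3, 54.6, 49.7 and 89.6 CPM in IRR_6w, without overlap, and the log2 fold change was 1.85 (SE 0.484, adjusted p = 0.141). In Control_6w Trim30a measured 41.5, 23.3, 39.8 and 26.6 CPM, and in IRR_6w 37.4, 74.5, 114 and 147 CPM, with IRR_6w replicate 1 inside the control range and a log2 fold change of 1.51 (SE 0.439, adjusted p = 0.205). The nuclear body proteins Pml and Sp100 had 0.74 and 0.08 and the antibody receptor Trim21 had 0.48. Phf11d and Trim30a share 5.22 and 4.98% of their 75-base stretches with close relatives. The Sp100 values were 32.4, 49.4, 108 and 58.9 CPM in Control_6w and 55.9, 89.2, 42.8 and 75.2 CPM in IRR_6w, which overlap over most of their range.

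Of the remaining 7 induced genes none was called and 4 passed the fold limit at an unadjusted p, with the largest log2 fold changes in Ifi44 and Ifi27l2a. Hearts of Control_6w had 26.8, 8.95, 12.8 and 13 CPM of Ifi44, and those of IRR_6w 16.1, 59.5, 179 and 172 CPM. IRR_6w replicate 1 was within the controls and the other three hearts were above them, with a log2 fold change of 2.79 (SE 0.674, adjusted p = 0.116). Ifi27l2a showed another order of mice, since its Control_6w hearts had 9.36, 12.6, 22.7 and 8.42 CPM and its IRR_6w hearts 103, 76.9, 25.9 and 24 CPM. Replicates 1 and 2 were highest there and replicates 3 and 4 lowest, and the log2 fold change was 2.11 (SE 0.521, adjusted p = 0.118). The apoptosis regulator Xaf1, Tor3a, Ifi35 and its partner Nmi had 1.00, 1.21, 0.68 and 0.61. Epsti1 was the 1 gene of the 43 with a negative value, -0.64 (adjusted p = 0.876), and its Control_6w values of 5.94, 0.918, 47.6 and 2.49 CPM were set apart by replicate 3, the heart with thymocyte genes.

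**Figure D2:**
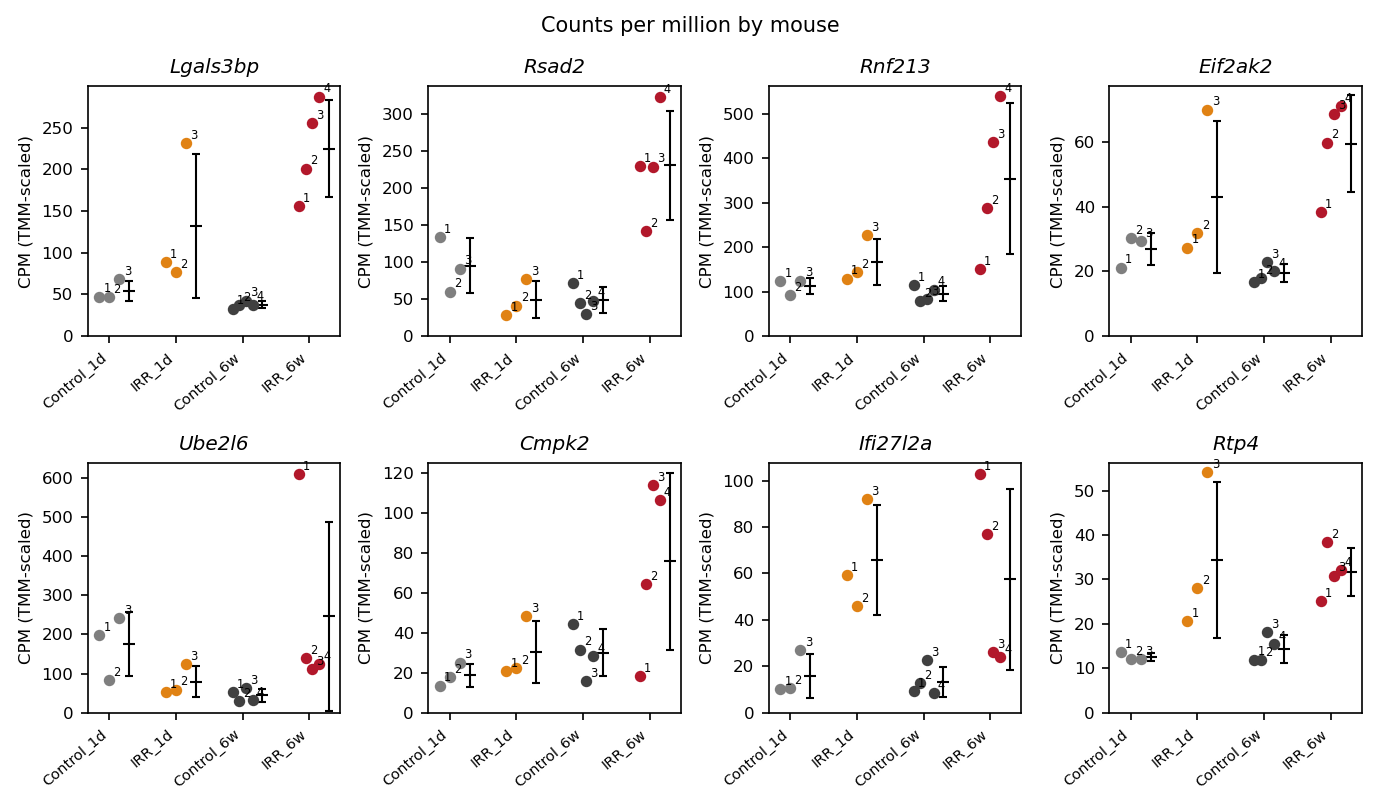
TMM-scaled CPM (y axis, linear from 0) of 8 genes in each heart, by group on the x axis, with the replicate number beside each point and the group mean ± SD as a black bar. For Lgals3bp, Rsad2, Rnf213 and Eif2ak2 every IRR_6w heart lies above every Control_6w heart, while for Cmpk2 IRR_6w replicate 1 lies within the controls and for Ube2l6 the same heart is the highest at 608 CPM.

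At 1 day, 37 of 43 genes were higher in IRR_1d than in Control_1d with a median log2 fold change of 0.55 (1.46-fold), against 0.06 over all genes. None of the 43 was called by edgeR, where 0.0249% of all genes were. At an unadjusted p under 0.05, 7 of 43 differed, 6 higher (Xaf1 with less than the fold limit) and Rsad2 lower, and 5 of them also passed the fold limit (11.6% against 2.23% of all genes). DESeq2 on the 4 groups called 0 (0.115% of all genes), limma-voom called 0 of the 43 and 0.0% of all genes, and DESeq2 on these groups alone called 1, Ifi27l2a (0.239% of all genes). In 12 of 43 (27.9%) every IRR_1d heart was above every control, against 6.52% of all genes.

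The 5 genes were Rtp4, Ifi27l2a, Lgals3bp, Ifitm3 and Pml. Rtp4 stood at 13.7, 12.1 and 12.1 CPM in Control_1d and 20.7, 28.1 and 54.2 CPM in IRR_1d, without overlap, a log2 fold change of 1.44 (SE 0.342, adjusted p = 0.622). Ifi27l2a stood at 10.3, 10.6 and 27 CPM in Control_1d and 59.5, 45.9 and 92 CPM in IRR_1d, also without overlap, with a log2 fold change of 2.04 (SE 0.60, adjusted p = 1.00). Ifitm3 stood at 22.1, 77.8 and 98.2 CPM in Control_1d and 149, 172 and 265 CPM in IRR_1d, and Pml at 5.14, 12.3 and 26.1 and 29.4, 26 and 45.6 CPM. For Ifitm3 and Pml the lowest control was replicate 1, the library in which 30.7% of low genes had 0 counts, and the log2 fold changes were 1.56 and 1.21. Apart from Rsad2 and Ube2l6, the genes lower at 1 day were Trim25, Samd9l, Slfn5 and Ifi35, with log2 fold changes of -0.21 to -0.03. The widest difference was that of Mx1, with 0, 1.71 and 1.62 CPM in Control_1d, 2.90, 3.60 and 15.9 CPM in IRR_1d and a log2 fold change of 2.77 (SE 1.35, adjusted p = 1.00).

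A single heart carried much of the value at 1 day. IRR_1d replicate 3 was the highest of its group for 42 of 43 genes, and its median ratio to the control mean was 2.15, against 1.10 and 1.13 in replicates 1 and 2. Without it, 29 of 43 genes were higher at 1 day and the median log2 fold change was 0.20. Without replicate 2, 8 genes in place of 5 passed the fold limit at an unadjusted p (2.55% of all genes). Replicate 3 exceeded every Control_1d heart for 37 genes, while replicates 1 and 2 each did so for 17. The 43 genes summed to 3728 CPM in that heart, to 1953 and 2087 CPM in replicates 1 and 2, and to 1627 to 2102 CPM in Control_1d. This is also the IRR_1d heart with Ucp1 and the most atrial RNA. Its 4 monocyte markers summed to 51.5 CPM, against 4.12 and 5.41 CPM in replicates 1 and 2, and its 5 fibroblast markers to 4358 CPM, against 2095 and 2280 CPM. Its 8 macrophage markers summed to 692 CPM, against 842 and 720 CPM, and 4 of them (Cd68, Adgre1, Cd163 and Mrc1) were highest in replicate 3 while the other 4 (Csf1r, C1qa, C1qb and Lyz2) were not. The part of other tissues and cell types in the result was not tested.

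The mice of the 6-week groups could be ordered as well. IRR_6w replicate 1 was the lowest of its group for 35 of 43 genes, with a median ratio to the control mean of 1.28 against 2.22, 2.16 and 2.73 in replicates 2, 3 and 4. Replicate 4 was the highest for 23 genes. Replicate 1 exceeded every control for 23 of 43 genes and the other three hearts for 37, 39 and 39. Control_6w replicate 3 was the highest control for 23 genes and the lowest for 11. The 43 genes summed to 3075, 3896, 4412 and 5096 CPM in IRR_6w and to 1973, 1712, 2091 and 1744 CPM in Control_6w, so all irradiated hearts were above all controls on the summed level. Without the 3 hearts with Ucp1 counts, all 43 genes, Epsti1 included, were higher at 6 weeks, the median log2 fold change was 1.41 and 22 were called, the same 4 among them, where 1.13% of all genes were called. That set was chosen after seeing the data. Without IRR_6w replicate 1 alone 7 were called (0.627% of all genes), and without Control_6w replicate 3 alone 1, Lgals3bp (0.231%).

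**Figure D3:**
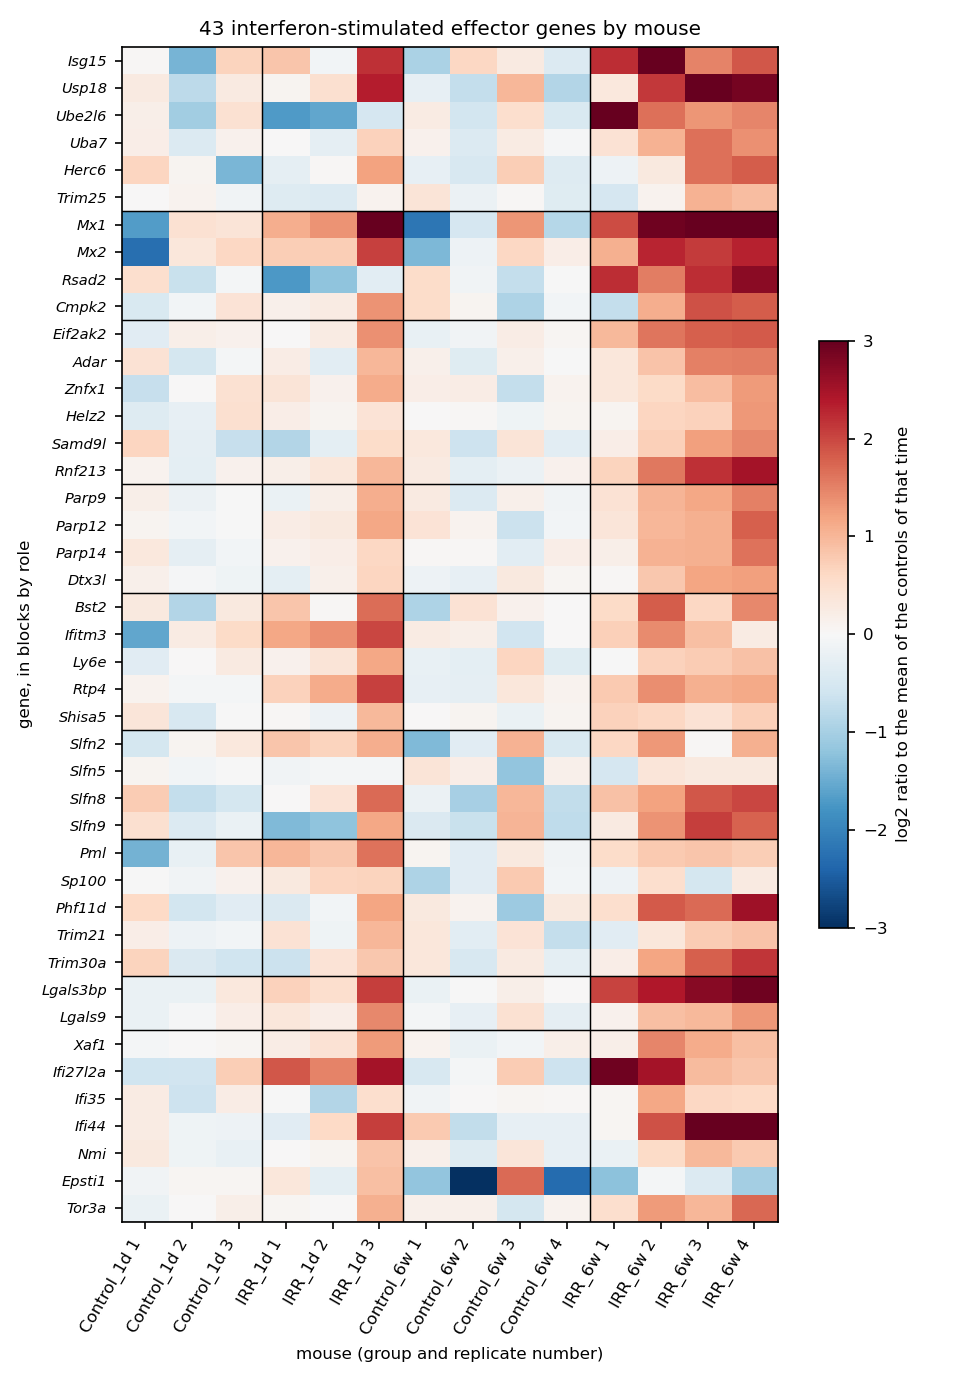
Log2 ratio of each gene (rows, in blocks by role) in each heart (columns) to the mean of the controls of the same time, on TMM-scaled CPM with 0.5 added, with the colour scale ending at -3 and 3. IRR_1d replicate 3 is the reddest column of its group, being highest for 42 of 43 genes, and IRR_6w replicate 1 the palest of its group, being lowest for 35 of 43.

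Between the control groups, the genes had no common direction. At 6 weeks against 1 day 21 of 43 were higher and 22 lower in controls, with a median log2 fold change of -0.00 against 0.12 over all genes. No gene of the 43 and 0.0% of all genes were called by edgeR, 2 of 43 had an unadjusted p under 0.05, and with the fold limit 1 did (2.33% against 3.75% of all genes). DESeq2 on all groups called 0 (0.0974% of all genes), limma-voom 0 (0.0%), and DESeq2 on these groups alone 1, Ube2l6 (0.135%). The 2 genes were Ube2l6 with a log2 fold change of -1.98 (SE 0.588, adjusted p = 0.902) and Rsad2 with -0.97 (SE 0.398, adjusted p = 0.902), both lower in Control_6w.

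Between the irradiated groups, 39 of 43 genes were higher in IRR_6w than in IRR_1d, with a median log2 fold change of 0.59 against -0.02 over all genes. None was called by edgeR (0.0374% of all genes were), 8 had an unadjusted p under 0.05, and 5 of these passed the fold limit (11.6% against 3.85%). Without IRR_1d replicate 3 the median was 1.01 and 18 genes passed (3.86% of all genes), and without IRR_1d replicate 2 they were 0.39 and 1 (2.30%). Dropping IRR_1d replicate 1 left 1 gene past the limit (2.22%), dropping IRR_6w replicate 1 left 10 (5.86%), and dropping either IRR_6w replicate 3 or replicate 4 left 2 (3.23% and 2.87%). DESeq2 called 1, Rsad2, on all groups (0.515% of all genes) and on these alone (1.38%), and limma-voom 0 (0.0624%). In 2 of 43 genes (4.65%, against 5.47% of all genes) every IRR_6w heart was above every IRR_1d heart, namely Rsad2 and Helz2. Rsad2 had a log2 fold change of 2.24 (SE 0.432, adjusted p = 0.0931) and Helz2 0.92 (SE 0.291, adjusted p = 0.576). Without the 3 hearts with Ucp1 counts the median was 1.18, 28 passed the fold limit at an unadjusted p (6.24% of all genes) and 8 were called where 0.659% of all genes were, namely Cmpk2, Dtx3l, Lgals3bp, Lgals9, Rnf213, Rsad2, Slfn9 and Usp18.

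The change in the irradiation effect is the log2 fold change at 6 weeks minus that at 1 day. It was above 0 for 35 of 43 genes, with a median of 0.68 against -0.15 over all genes. Without IRR_1d replicate 3 the median was 1.08, and without IRR_1d replicate 1 or 2 it was 0.44 or 0.43. No gene of the 43 and 0.0% of all genes passed in edgeR, while 5 of 43 (11.6%, against 2.86% of all genes) had an unadjusted p under 0.05 with the fold limit. That count was 16 with IRR_1d replicate 3 left out (3.08% of all genes), 10 with IRR_6w replicate 1 (4.88%) and 3 with IRR_6w replicate 4 left out (2.34%). It was 2 when IRR_1d replicate 1 or 2 was dropped (1.93% and 2.24%), and 23, with a median of 1.26, without the 3 hearts with Ucp1 counts (5.55%). DESeq2 called 2, Rsad2 and Ube2l6 (0.157% of all genes), and limma-voom 0 (0.0%). Rsad2 had the smallest p, with a change of 3.21 (SE 0.581, adjusted p = 0.343) and an unadjusted p of 6.82e-05. Ube2l6 had 3.62 (SE 0.853, adjusted p = 0.570) and an unadjusted p of 7.82e-04. Over the 14 fits that leave out 1 library, the change was 2.875 to 3.689 for Rsad2 and 2.643 to 4.105 for Ube2l6. The other three were Lgals3bp (1.29), Rnf213 (1.34) and Uba7 (1.01). Values near 0 were found for Ly6e (-0.01), Slfn2 (-0.05), Trim21 (-0.05) and Ifi27l2a (0.07), with SEs of 0.479 to 0.764, each value being smaller than its SE. The effects at both times share no hearts, but all 4 groups share 1 estimate of the spread.

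The genes upstream of the effectors were counted from lists of ligands, receptors, kinases and transcription factors, and inhibitors. None of the 10 interferon ligands had enough counts to be tested. Ifnb1 had 2, 36 and 20 counts in IRR_6w replicates 2, 3 and 4 (0.12, 2.29 and 0.95 CPM) and 0 in the other 11 libraries. By counting error alone, a count of 0 allows up to 3 counts or 0.302 CPM. In Control_1d replicate 1, where 30.7% of the genes at a median of 2 to 5 CPM elsewhere had 0 counts, the 0 is not read as absence. In IRR_6w replicates 3 and 4 that share was 21.6 and 8.62%. None of the 6 receptor genes passed at an unadjusted p in either irradiation comparison, and that with the smallest p at 6 weeks was Ifnar1, with a log2 fold change of 0.41 (SE 0.227, adjusted p = 0.656). Of 8 kinases and factors, 1 was called at 6 weeks. This was Irf7, the interferon-induced factor that amplifies interferon production, with 8.75, 14.5, 9.29 and 10.8 CPM in Control_6w, 56.7, 240.0, 142 and 185 CPM in IRR_6w and a log2 fold change of 3.85 (SE 0.574, adjusted p = 0.0188). Irf7 had 11.7, 11.2 and 28 CPM in Control_1d and 24.4, 23.7 and 104 CPM in IRR_1d, where it was not called, and IRR_1d replicate 3 was again the highest. Stat2 and Irf9 had log2 fold changes of 1.02 and 1.14 at 6 weeks and were not called. None of 5 inhibitors was called, and that with the smallest p was Ptpn2, with -0.57 (SE 0.387, adjusted p = 0.730). Ptpn2 was at 9.13, 15.6, 34.5 and 15.8 CPM in Control_6w and at 14.4, 16.9, 6.30 and 12.8 CPM in IRR_6w. The highest value was that of Control_6w replicate 3, the heart with thymocyte genes.

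Markers of macrophages, cells that respond strongly to interferon, were also higher at 6 weeks. The 8 macrophage markers summed to 277 to 710 CPM in Control_6w and 1151 to 1489 CPM in IRR_6w, without overlap, and 7 of 8 were higher, Cd163 being lower. Cardiomyocyte sums were 4905 to 44320 CPM in Control_6w and 8447 to 30720 CPM in IRR_6w. None of the 8 macrophage markers was called, 5 passed the fold limit at an unadjusted p, and Adgre1 had a log2 fold change of 1.97 (SE 0.413, adjusted p = 0.0663). The 4 monocyte markers summed to 5.97 to 30.4 CPM and 61.4 to 112 CPM, but without Ccr2 the other 3 overlapped, with 0.533 to 22.4 CPM and 3.88 to 24.4 CPM. Ccr2, the receptor that draws monocytes into tissue, rose with a log2 fold change of 3.49 (SE 0.569, adjusted p = 0.0250). At 1 day the macrophage sums overlapped, with 635 to 877 CPM in Control_1d and 692 to 842 CPM in IRR_1d. The 5 fibroblast markers summed to 814 to 1938 CPM in Control_6w and 2021 to 2692 CPM in IRR_6w, also without overlap. The collagen genes Col3a1 and Col1a1 had log2 fold changes of 1.57 (SE 0.371, adjusted p = 0.109) and 1.38 (SE 0.446, adjusted p = 0.289) and Pdgfra -0.58, and none of the 5 was called. Endothelial markers summed to 499 to 1578 CPM in Control_6w and 972 to 1601 CPM in IRR_6w. The 4 B cell markers summed to 2.76 to 18.1 CPM in Control_6w and 8.41 to 51.3 CPM in IRR_6w, and the 5 T cell markers to 1.84 to 940 CPM and 6.98 to 19.2 CPM, both with overlap. In IRR_1d the B cell sums were 0.516 to 1.63 CPM and the T cell sums 0.172 to 1.92 CPM, without overlap with IRR_6w. Siglech, the defining marker of plasmacytoid dendritic cells, the main producers of type I interferon, was at 0, 0.995, 5.18 and 0.539 CPM in Control_6w and 1.32, 0.0602, 0 and 0 CPM in IRR_6w. The zeros of IRR_6w replicates 3 and 4 are not read as absence. The 5.18 CPM belongs to Control_6w replicate 3, the heart with thymocyte genes, where Ccr9, listed with Siglech, was at 275 CPM. Of the 4 genes listed for these cells, Tcf4 alone was higher at 6 weeks (log2 fold change 0.12), and none was called. The part of the cell makeup of the hearts in the differences of the 43 genes was not tested.

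**Figure D4:**
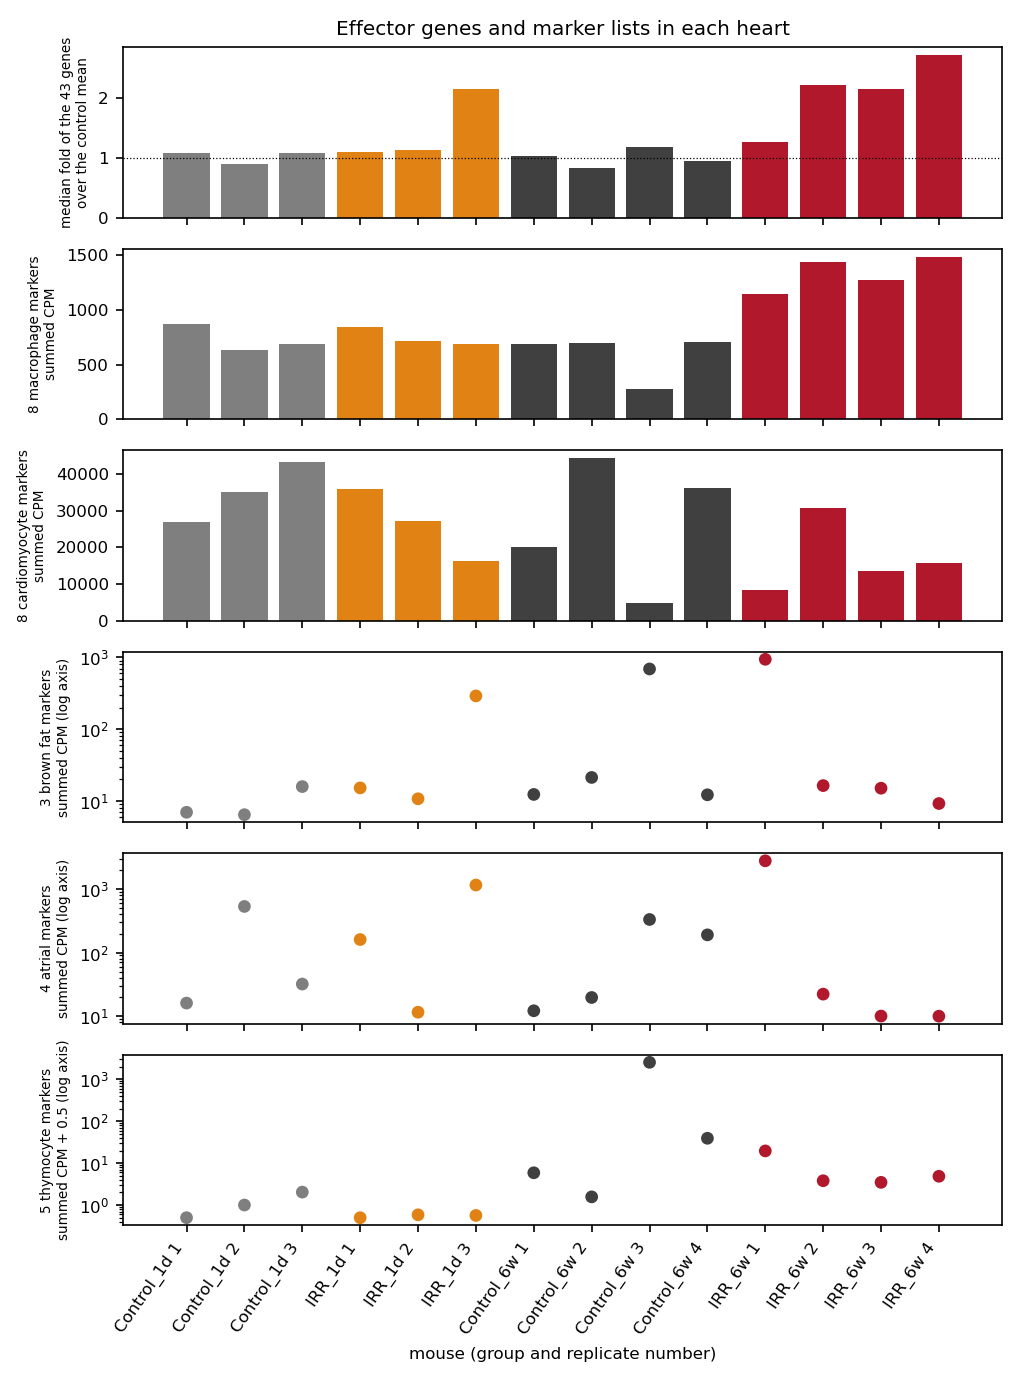
For each heart on the x axis, from top to bottom, the median fold of the 43 genes over the mean of the controls of that time (dotted line at 1), and the summed TMM-scaled CPM of macrophage, cardiomyocyte, brown fat, atrial and thymocyte markers, the last 3 on log axes. The macrophage sum is higher in all 4 IRR_6w hearts, 1151 to 1489 CPM, than in any control, while the brown fat sum stands out in IRR_1d replicate 3, Control_6w replicate 3 and IRR_6w replicate 1.

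By position, the 43 genes lie on 14 chromosomes. Chromosome 11 holds 10 of them (23.3%, against 7.96% of genes tested), with the Schlafen genes, both galectin-related genes and Rnf213, and chromosome 16 holds 6 (14% against 3.07%), with both Mx genes and the neighbours Parp9, Parp14 and Dtx3l. Herc6, Adar, Ifi35 and Slfn5 share 13.7, 16.8, 16.8 and 8.84% of their exonic bases with another gene. All 43 genes were measured in the same hearts, and neighbours may also share reads, so the genes are not independent observations.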

How the data were processed

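The deposited table held raw counts per gene for the 14 libraries, one column each, beside gene names and gene lengths given by the authors. Per the labels and the study's methods, the authors checked paired-end reads with FastQC 0.11.8, trimmed them with Trim Galore 0.6.1, aligned them to mm10 with STAR 2.5.0a and counted them with HTSeq. Whether the counting used strand, how it treated shared reads and which gene annotation it used are not given in the sources used here.

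From these counts, edgeR 4.0.16 (R 4.3.3) was used with filterByExpr, TMM scaling and a quasi-likelihood fit of the 4 groups together, which share 1 estimate of the spread. P-values were adjusted by Benjamini-Hochberg over the 16034 genes tested, and all adjusted and unadjusted p-values in the text are from this edgeR test unless DESeq2 1.42.0 or limma 3.58.1 is named. The edgeR script was tested on simulated data. FPKM was computed from the deposited gene lengths only to compare levels between genes. Exonic overlaps and shared 75-base stretches were computed from the reference tables.

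The 43 genes and the gene lists were chosen with earlier results of these data known. Values by heart are given for genes called in any comparison, the 2 genes of each role with the smallest p at 6 weeks, Cmpk2, and genes that went against most others at an unadjusted p under 0.05. Isg15, Usp18, Slfn5, Sp100, Epsti1, Ifitm3 and Pml were added after their values were seen. Alternatives were other scalings, tests, filters, thresholds and sets of libraries, and the replicate number as a block.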

Additional observations from a re-analysis of the deposited data

Results flagged for a closer look

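In 7 of 86 groups of 4 hearts, 1 heart lay beyond the 95% limit of Dixon's gap test, and chance alone marks about 1 in 20 such groups. Of these, 5 were Control_6w replicate 3 and 2 were IRR_6w replicate 1. Both are among the hearts with RNA of other tissues, whose part in these values was not tested. Control_6w replicate 3 was the highest of its group for Herc6 (31.4 CPM, the next 15.5), Ly6e (558 CPM, the next 308), Slfn9 (16.9 CPM, the next 5.78) and Epsti1 (47.6 CPM, the next 5.94), and the lowest for Tor3a (12.9 CPM, the next 20.1). IRR_6w replicate 1 was the highest of its group for Ube2l6 (608 CPM, the next 140.2) and the lowest for Slfn5 (139 CPM, the next 241).

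The irradiation effect differed between 1 day and 6 weeks for Ube2l6 and Rsad2 by DESeq2's test of the difference. In edgeR neither passed over all 14 hearts with the filter on low counts, Rsad2 passed with no filter, and both passed without the 3 hearts with Ucp1 counts. The log2 effect at 6 weeks minus that at 1 day was 3.62 for Ube2l6 (edgeR adjusted p = 0.57) and 3.21 for Rsad2 (edgeR adjusted p = 0.343). Over the fits that leave out 1 library it was 2.643 to 4.105 for Ube2l6 and 2.875 to 3.689 for Rsad2.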

How the results depend on the processing

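All 43 genes entered every fit, but DESeq2 on the 6-week groups alone gave a p-value for only 41, and Ube2l6 was among those without one. The 6-week log2 fold changes of the 19 genes chosen by the naming rule kept their direction in the settings that gave a value. Other comparisons were rerun by gene only for the genes named there, and at 1 day the genes above 0 fell from 37 to 29 without IRR_1d replicate 3. Epsti1, not among the 19, was higher in IRR_6w without the 3 hearts with Ucp1 counts. Each share below is over the genes of its own fit. For the 6-week comparison these were 29699 with no filter, 28748 with DESeq2 and 26881 with DESeq2 on the 6-week groups alone. At 6 weeks, 4 genes were called with TMM, with library totals, with DESeq2 size factors and with no fold limit. The count, with the share of all genes called in the same fit, was 10 with no filter on low counts (0.465%), 18 with DESeq2 (1.19%), 17 with DESeq2 (1.31%) and 1 with edgeR (0.0890%) on these groups alone, 2 with limma-voom (0.112%), 9 without Control_6w replicate 3 and IRR_6w replicate 1 (0.872%), 15 without those and Control_1d replicate 1 (1.73%), 22 without the 3 hearts with Ucp1 counts (1.13%) and 25 at an unadjusted p (5.43%). Leaving out 1 library gave 0 to 7 calls, and it was 0 when Control_6w replicate 1, Control_6w replicate 2, IRR_6w replicate 3 or IRR_6w replicate 4 was dropped, where 0.0% of all genes were called too, and the median log2 fold change stayed at 1.00 to 1.34. At 1 day the count was 1 with DESeq2 on these groups alone (0.239%) and 5 at an unadjusted p (2.23%). Between controls it was 1 (0.135%) and 1 (3.75%) under the same settings. Between irradiated groups it was 1 with no filter (0.0875%), with DESeq2 (0.515%), with DESeq2 on these groups alone (1.38%) and without Control_6w replicate 3 and IRR_6w replicate 1 (0.865%), 4 without those and Control_1d replicate 1 (1.80%), 8 without the hearts with Ucp1 counts (0.659%), where the median was 1.18, and 5 at an unadjusted p (3.85%), and leaving out 1 library gave 0 to 1. For the change in effect it was 1 with no filter (0.0303%), 2 with DESeq2 (0.157%), 4 without the hearts with Ucp1 counts (0.182%) and 5 at an unadjusted p (2.86%). Causes were not tested. With library totals in place of TMM the median over all genes moved from -0.09 to 0.14 at 6 weeks and from -0.02 to 0.30 between irradiated groups. Same-numbered hearts did not deviate together in every pair (correlations -0.364 to 0.422), and with the replicate block 2 genes were called at 6 weeks, Eif2ak2 and Lgals3bp (0.0936% of all genes). Mx1 had 0 counts in Control_1d replicate 1 and Control_6w replicate 1, and its fitted fold change is correspondingly imprecise.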
